A study of Mus musculus with 12 samples.

Results

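The cells described here are tumour macrophages that carried transcripts of complement C1q and of MHC class II but none of Mrc1, the mannose receptor. They were chosen on the raw counts of unique molecular identifiers (UMIs, each marking 1 captured transcript) in a cell. A cell needed at least 3 UMIs of C1qa, C1qb and C1qc together, at least 5 of H2-Aa, H2-Ab1 and H2-Eb1 together, 0 of Mrc1 and 0 of the T-cell receptor genes Cd3e, Cd3d and Cd3g. Of 116375 cells kept in 6 libraries, 4918 met these conditions, 4910 of them in tumours and 8 among the 5769 cells of day 0. They are called gated macrophages below. The libraries held 415, 680, 511 and 1671 of them for lines 15, 18, 19 and 24, and 599 and 1042 for the mixed libraries 1 and 2.

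The study followed mouse tumours of the line SCC35, in a series on the rejection of melanoma, after knockout (KO) of Mif, the gene of macrophage migration inhibitory factor, a secreted cytokine. Tumours were dissociated, their cells were marked with hashtag antibodies (each carrying a DNA barcode that names the tumour), sorted for live cells, and profiled on the 10x Genomics 5′ single-cell platform. The groups were control lines 15 and 18 and KO lines 19 and 24, sampled on days 6, 10 and 16. Each line had its own library, and mixed library 1 held tumours of lines 15, 18 and 19 and mixed library 2 those of lines 18 and 24. A group thus rests on 2 lines, each line is nested in its group, and the sources used here do not say how the knockouts were made, whether a line is a clone, which mice were used or how the control lines were treated. Comparisons used 18 control tumours with 1544 gated macrophages and 17 KO tumours with 2959. A further 3 tumours that the hashtag sheet calls WT, with 407 gated macrophages, stand in no group of the labels and entered no comparison. Nothing says that tumours of a line came from separate animals, so p-values measure the spread between tumours of these 4 lines.

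C1q is the first component of the classical complement pathway, built from the products of 3 neighbouring genes, and tissue macrophages are a main source of it. MHC class II molecules, here the pairs encoded by H2-Aa with H2-Ab1 and by H2-Eb1 with its partner chain, show peptides from engulfed proteins to CD4 T cells, and the invariant chain Cd74 and H2-DM load them. In mouse tumours, Ly6C-high monocytes can become macrophages that keep MHC class II and make interferon-induced chemokines, while Mrc1 marks macrophages with genes of alternative activation and tissue residence.

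MHC class II promoters share a set of short elements just before the start of transcription, among them the Y box, which is bound by the factor NF-Y. These promoters are shown because H2-Aa and H2-Eb1 define the population. The sequences are from RefSeq on GRCm38.p6, 5′ to 3′ on the strand of the gene, with the letters CTGATTGG, a form of the Y box, in capitals. Positions are counted from the annotated start.

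H2-Aa promoter (chr17:34287824-34287943, minus strand): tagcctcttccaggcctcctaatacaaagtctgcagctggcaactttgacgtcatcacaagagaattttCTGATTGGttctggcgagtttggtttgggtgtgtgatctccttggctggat
H2-Eb1 promoter (chr17:34305747-34305866, plus strand): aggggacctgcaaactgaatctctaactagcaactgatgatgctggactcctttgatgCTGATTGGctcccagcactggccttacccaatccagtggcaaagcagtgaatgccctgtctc

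The first capital letter lies at -51 in H2-Aa and at -62 in H2-Eb1. On either strand (CTGATTGG or CCAATCAG), these letters occur in 4.1% of 32851 promoters of 300 bases in the same table. The windows of C1qb, C1qc and Mrc1 do not hold them, which says nothing about the factor. H2-Ab1 and C1qa are named only.

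A check of the label against other genes showed transcripts of macrophages and part of those of monocytes. Levels are UMI counts summed over the cells of a class or of a tumour and scaled to a common total of 1e6 (CPM). The reads count 5′ ends, so a gene's level does not scale with its length. Gated macrophages had 1860 CPM of Lyz2 (lysozyme), 1593 of Apoe (apolipoprotein E), 1516 of Tyrobp (a signalling adaptor of myeloid cells), 303 of Cd68 (a lysosomal glycoprotein) and 181 of Csf1r (the receptor of macrophage colony-stimulating factor). The same genes stood at 30.3, 17.7, 32.6, 10.8 and 3.85 CPM in 55693 cells with 0 UMIs of Ptprc (the leukocyte antigen CD45), C1q, MHC class II and Cd3. These are called line-type cells below, although no marker sets the injected lines apart from stroma. They were chosen without Ptprc, so this contrast does not set macrophages apart from other leukocytes. The sum of 10 macrophage markers was 6518 CPM in gated macrophages and 9379 CPM in Mrc1-positive cells. It was 2861 CPM in cells with MHC class II and no C1q UMI. Gated macrophages with 3 to 5 C1q UMIs had 3649 CPM, nearer to those cells.

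Several defining markers of dendritic cells and lymphocytes were near 0 in the gated macrophages, and others were not. The dendritic-cell genes Flt3, Xcr1, Clec9a and Cd209a had 0.39, 1.32, 2.19 and 0.96 CPM, against 15.5, 4.70, 7.13 and 43.4 CPM in 5522 cells with MHC class II and no C1q UMI. Siglech of plasmacytoid dendritic cells had 0.09 CPM, Cd79a of B cells 0.70 and Ncr1 of natural killer cells 0.48. Other lymphocyte markers were higher, with 20.4 CPM of Ighm, 10.5 of Cd79b, 28.2 of Il7r and 8.77 of Nkg7, and 6 natural killer markers summed to 28.8 CPM against 9.73 CPM in Mrc1-positive cells. Ccr7, a receptor of mature dendritic cells, stood at 19.5 CPM, against 350.5 CPM in the cells without C1q. Of the other dendritic-cell markers, Mgl2 and Sirpb1c had 114 and 76.6 CPM, above the 52.2 and 43.1 CPM of the cells without C1q, and Irf8 had 99.4 against 162 CPM. The 6 osteoclast markers summed to 290 CPM and the 6 fibroblast markers to 502 CPM in gated macrophages, against 98.0 and 1166 CPM in line-type cells, and their part in the results was not tested. The neutrophil gene S100a8 was at 5.57 CPM, and the collagen gene Col1a1 at 178 CPM, against 487 CPM in line-type cells. At least 1 UMI of another cell type's marker was carried by 963 gated macrophages (19.6%), and no doublet caller was run beyond the hashtags. Pairs of libraries shared 296 to 709 cell barcodes, at most 3.27% of the smaller library.

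The thresholds divide a continuous range. Just inside the MHC class II limit 147 cells had 5 UMIs, and just outside 213 had 4. Just inside the C1q limit 350 cells had 3 UMIs, and just outside 497 had 2. A single Mrc1 UMI kept out 1585 cells that met the other conditions, and a single Cd3 UMI kept out 121. The median gated macrophage had 14 C1q UMIs, 33 MHC class II UMIs and 2992.5 UMIs in all. C1q cells with Mrc1 (6683 cells) had medians of 34 C1q UMIs, 2 MHC class II UMIs and 3918 UMIs in all, so a count of 0 for Mrc1 was read from shallower cells.

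Within the population, cells with few and with many C1q UMIs differed in their other transcripts. The monocyte genes Ly6c2 and Plac8 had 397 and 346 CPM in the 988 cells with 3 to 5 C1q UMIs, 379 and 353 CPM in the 767 cells with 6 to 9, and 162 and 131 CPM in the 3155 cells with 10 or more. The macrophage genes went the other way. Apoe had 429, 647 and 2026 CPM in the same order, Trem2 (a lipid-sensing receptor) 25.8, 40.0 and 90.2 CPM, and Cx3cr1 (the fractalkine receptor) 7.69, 12.6 and 52.7 CPM. Cd74 had 6576, 7790 and 10540 CPM. Median depth also differed, with 1963, 2270 and 3406 UMIs per cell. Since C1q chose the cells, these values describe the range that the name covers.

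**Figure D1:**
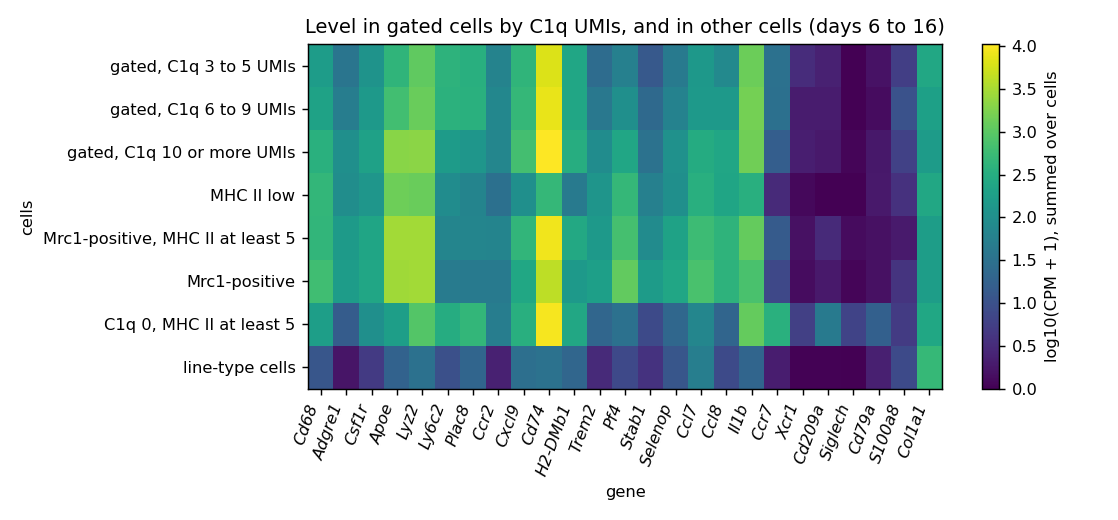
Heat map of log10(CPM + 1) for marker and pathway genes (columns) in gated macrophages split by C1q UMIs, in the other C1q cells, in cells with MHC class II and no C1q UMI, and in line-type cells (rows), each row summed over cells of days 6 to 16. Ly6c2 and Plac8 are lower, and Apoe and Trem2 higher, in gated macrophages with 10 or more C1q UMIs than in those with 3 to 5.

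The neighbours most like this population are the C1q cells with Mrc1, and the choice of cells fixes that contrast, so it is described without a test. Over 35 tumours, the median log2 ratio of gated to Mrc1-positive cells was 1.68 for Il1r2 (a decoy receptor for interleukin 1, higher in 34 of 35 tumours), 1.58 for Ly6i, 1.45 for Ly6c2 (33 of 35) and 0.98 for Plac8 (35 of 35). It was 1.08 for Ccl5 and 0.92 for Cxcl9, chemokines that attract T cells, and 1.33 for Cd74. On the other side, Fcrls, Pf4 (platelet factor 4), Stab1 (a scavenger receptor) and Apoe were lower in the gated cells of all 35 tumours, with ratios of -2.27, -2.02, -1.75 and -1.19. The chemokines Ccl8 and Ccl7 stood at -1.84 and -1.76 and Folr2 (a folate receptor) at -1.79.

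Some of these differences were smaller against Mrc1-positive cells with at least 5 MHC class II UMIs, in 30 tumours. Il1r2 then had a ratio of 0.85 and Cd74 of 0.14, while Ly6c2 had 1.39, Plac8 0.88, Pf4 -1.62 and Fcrls -1.51. By lists, 10 of 12 genes of alternative activation and tissue residence were lower in the gated cells against all Mrc1-positive cells, with a median of -1.12 beside -0.02 over 8140 genes. Of 13 phagocytosis and complement receptors 11 were lower, with a median of -0.42, and of 17 interferon-γ response genes 13 were higher, with a median of 0.16. Of all 8140 genes 43.8% had a ratio above 0. Against the Mrc1-positive cells with at least 5 MHC class II UMIs, 52.1% of 8091 genes did. There 10 of 13 genes of alternative activation and tissue residence and 12 of 13 receptors were lower, and 12 of 17 interferon-γ response genes were higher. Cells were also thinned to 2000 UMIs each, and those with fewer were left out. Of the 3591 gated macrophages that remained, 19.0% had a Ly6c2 UMI, against 4.77% of Mrc1-positive cells and 0.67% of line-type cells. For Cxcl9 the share was 37.6%, against 17.1% and 1.89%. Unthinned, the shares in gated macrophages were 28.2% for Ly6c2 and 45.8% for Cxcl9. Summed over cells, Cxcl9 had 605 CPM in gated macrophages and 246 CPM in all Mrc1-positive cells. In Mrc1-positive cells with at least 5 MHC class II UMIs it had 437 CPM.

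Gated macrophages took a larger share of the C1q cells in KO tumours than in control tumours. They were 10.3% to 53.7% of C1q cells in the 18 control tumours, with a median of 17.3%, and 22.7% to 75.7% in the 17 KO tumours, with a median of 47.0%. All 17 KO tumours lay above the control median and 7 above every control tumour, so the groups overlapped. The difference in means, averaged over days, was 25.1 percentage points (two-sided permutation test within days, p = 3e-05, and 6e-05 adjusted over the 2 shares tested). With each cell thinned to 2000 UMIs it was 28.2 points. Thinning left out cells with fewer UMIs, which were 21.4% of C1q cells in control and 28.2% in KO tumours. In the mixed libraries alone it was 24.1 points (exact permutation test within days, across both libraries, p = 0.00926). That p is the smallest this exact test can give. There all 6 KO tumours, at 22.7% to 67.8%, lay above all 6 control tumours, at 12.4% to 21.8%. The WT tumours of mixed library 2, which entered no comparison, had 48.4% on day 6, 28.9% on day 10 and 28.3% on day 16. These WT shares also lay above all control tumours of the mixed libraries and within the range of the KO tumours there. Thinned, the mixed libraries gave 23.3 points, and 5 of 6 KO tumours lay above every control tumour. The ranges then met, with 22.4% in the lowest KO and 22.7% in the highest control tumour.

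The lines of a group were not alike. The mean share of C1q cells was 20.2% ± 8.31 (SD, n = 9) in line 15, 22.0% ± 13.2 (SD, n = 9) in line 18, 35.6% ± 14.1 (SD, n = 9) in line 19 and 58.0% ± 11.5 (SD, n = 8) in line 24. With the 4 line means as the units, the exact permutation p (two-sided) was 0.33, as low as this number of lines permits. Without line 24 the difference over tumours was 14.5 points, and without line 19 it was 35.6 points. The courses over days differed too. In line 24 the mean went from 46.8% on day 6 to 53.3% on day 10 and 70.1% on day 16, while line 19 had 49.6%, 24.5% and 32.7%. Line 15 had 26.8%, 18.8% and 15.1%, and line 18 had 22.3%, 26.4% and 17.2%. These courses were not tested.

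As a share of all kept cells, gated macrophages did not pass the test between the groups. They made up 1.21% to 7.50% of a control tumour's cells, with a median of 2.94%, and 1.07% to 11.4% of a KO tumour's, with a median of 3.48%. The groups overlapped over most of their range, and the difference was 1.41 points (permutation test, p = 0.129). It was 3.56 points without line 19 (permutation p = 0.00124) and -0.78 points without line 24 (permutation p = 0.266). C1q cells of every kind were 15.9% of kept cells in the median control tumour and 8.61% in the median KO tumour, and 3.71% to 11.5% of the cells of a line 19 tumour. Sorted fractions do not give cell numbers per tumour.

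**Figure D2:**
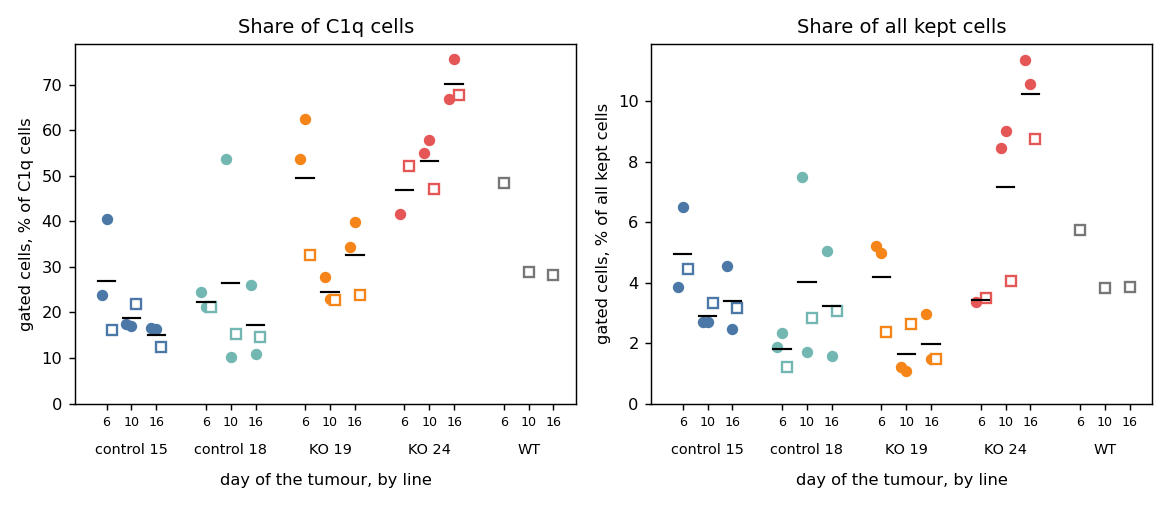
Gated macrophages as a percentage of C1q cells (left) and of all kept cells (right), for each tumour by line and day, with open squares for tumours of the mixed libraries and a black line for the mean. Line 24 reaches 66.8% to 75.7% of C1q cells on day 16, above every control tumour.

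Before the KO effect on transcripts, Mif itself was read in the gated macrophages. It had 892 to 2195 CPM (median 1747) in control tumours and 496 to 1650 CPM (median 855) in KO tumours. All 17 KO tumours lay below the control median and 9 below every control tumour, with a log2 difference of -0.75 (SE 0.15, edgeR adjusted p = 0.000357). In the mixed libraries alone it was 0.09 (edgeR adjusted p = 0.778). The injected lines carry the knockout, and their line-type cells had 2150 CPM in control and 275 CPM in KO tumours. Whether Mif counts in gated macrophages come from those cells as free RNA was not tested.

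The comparison of KO with control tumours asked which genes of the gated macrophages changed with the loss of Mif in the injected line. The lysosomal glycoprotein Cd68, the complement genes Cfp and C3ar1 and the peptidase Dpep2 were among the genes that fell, and the chemokine Ccl8, the transcription factor Egr2 and 7 of 17 interferon-γ response genes among those that rose. Most of the genes that passed over all tumours, higher and lower alike, did not pass within the mixed libraries. Of 5330 genes tested, 1167 (21.9%) passed an adjusted p of 0.05 in edgeR's quasi-likelihood test with Benjamini-Hochberg adjustment, 577 higher (10.8%) and 590 lower (11.1%). The single-line libraries carry line and library together, and there the group, line and library cannot be told apart. In the 2 mixed libraries, which hold 6 tumours of each group, 52 of 5317 genes passed (0.978%), 5 higher (0.094%; Vcam1, AW112010, Gas5, Tm4sf1 and Hspb1) and 47 lower (0.884%). Of these 52, 43 were among the 1167 with the same direction, 40 lower and 3 higher. With 1 sum per line 0 of 11211 genes passed in edgeR, with 1454 at an unadjusted p under 0.05, while DESeq2 over tumours called 1307 genes. Without line 24, 285 of 5251 genes passed (5.43%). Gated macrophages of control and KO tumours also differed in depth, with medians of 3378 and 2823 UMIs per cell, and in mitochondrial share, with 1.27% and 1.76%. Within the gate, their medians were 18 and 12 C1q UMIs and 28 and 36 MHC class II UMIs. With at least 10 C1q UMIs per cell, 843 of 4591 genes passed in edgeR. The part of these differences between the cells in the KO results was not tested.

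The lower genes described first passed both over all tumours and in the mixed libraries. Dpep2, a membrane dipeptidase that cleaves leukotriene D4, had 23.9 to 169 CPM (median 77.0) in control tumours and 4.75 to 77.4 CPM (median 23.6) in KO tumours. Of the 17 KO tumours 10 lay below every control tumour, and the log2 difference was -1.86 (SE 0.21, edgeR adjusted p = 4.62e-07). Slc37a2, a sugar-phosphate carrier of macrophages, had 20.2 to 130 CPM (median 59.2) against 5.59 to 37.0 CPM (median 17.1). Here 12 KO tumours lay below every control tumour, with a log2 difference of -1.74 (SE 0.21). Lsp1, an actin-binding protein of leukocytes, had 72.4 to 216 CPM (median 130) against 19.98 to 137 CPM (median 53.4). For it 14 KO tumours lay below every control tumour, with a log2 difference of -1.15 (SE 0.16). In the mixed libraries alone the differences were -1.62, -1.40 and -1.43.

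Other lower genes included Cfp, Cd68 and C3ar1. Cfp, the complement regulator properdin, had 119 to 557 CPM (median 258) in control and 47.5 to 387 CPM (median 108) in KO tumours. The groups overlapped, since line 19 held KO tumours up to the highest value of 387 CPM, and the log2 difference was -1.18 (SE 0.19). Cd68 had 188 to 677 CPM (median 424) against 84.8 to 387 CPM (median 213). All 17 KO tumours lay below the control median and 7 below every control tumour, with a log2 difference of -1.01 (SE 0.14). C3ar1, the receptor of the complement fragment C3a, had a median of 123 CPM against 70.7 CPM, a log2 difference of -0.69. Ifi30, a thiol reductase that unfolds proteins for MHC class II loading, had a median of 1090 against 624 CPM, a log2 difference of -0.63. Gpr183, a receptor that binds oxysterols and guides migration, fell by 1.19 on the log2 scale, and Gpr137b, a protein of the lysosomal membrane, had a median of 78.7 against 26.7 CPM. Both passed in the mixed libraries.

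Other strongly lower genes passed over all tumours but not in the mixed libraries. Ifitm1, an interferon-induced membrane protein, had a log2 difference of -1.46, and -1.78 in the mixed libraries (edgeR adjusted p = 0.159). Pid1 had -1.39 and -1.05, and Ltb4r1, the leukotriene B4 receptor, had -1.27 and -1.34. For Rgs16, a regulator of G-protein signalling, the difference was -1.44 over all tumours and -0.21 in the mixed libraries.

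The higher genes with the largest differences included genes that line-type cells also carried. Ogn, an extracellular proteoglycan, had 0 to 51.9 CPM (median 11.4) in control and 16.99 to 396 CPM (median 60.8) in KO tumours, a log2 difference of 3.07 (SE 0.45). All 17 KO tumours lay above the control median, and line 24 was highest with a mean of 228 CPM. S100a16, a calcium-binding protein, had 0 to 36.3 CPM (median 7.5) against 9.68 to 68.9 CPM (median 43.7), a log2 difference of 2.11. In line-type cells Ogn had 40.2 CPM in control and 110 CPM in KO tumours, and S100a16 had 16.6 and 93.7 CPM. The serine protease gene Prss23 rose by 1.49 in gated macrophages, beside 66.9 and 125 CPM in line-type cells. For Serpinf1, which encodes a secreted serpin, the difference was 1.40 but -0.15 in the mixed libraries, beside 82.3 and 142 CPM in line-type cells. A list of 4 genes was chosen as higher in the KO lines in earlier results of these data, so its level is no separate evidence. Its sum was 4.32 to 56.4 CPM (median 36.6) in gated macrophages of control and 50.7 to 507 CPM (median 112) in those of KO tumours. The 2 members tested were Ogn and S100a16, given above. The part of free RNA from line-type cells in these differences was not tested.

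Among the other higher genes, Ccl8, a chemokine that attracts monocytes and T cells, had 0 to 226 CPM (median 40.2) in control and 65.3 to 990 CPM (median 180) in KO tumours. All 17 KO tumours lay above the control median and 8 above every control tumour, with a log2 difference of 1.73 (SE 0.41, edgeR adjusted p = 0.00249) and of 2.11 in the mixed libraries (edgeR adjusted p = 0.082). Egr2, a transcription factor induced by stimulation, had 0 to 25.6 CPM (median 12.5) against 15.7 to 70.7 CPM (median 40.0). For it 14 KO tumours lay above every control tumour, with a log2 difference of 1.47 (SE 0.19), and 1.07 in the mixed libraries (edgeR adjusted p = 0.084). The transcription factor genes Nr4a3 and Crem rose by 1.43 and 1.21, the collagenase gene Mmp13 by 1.35 and Iigp1, an interferon-induced GTPase, by 1.29. None of these 4 passed in the mixed libraries, where Nr4a3 had 0.63, Crem 0.77 and Iigp1 0.82, and Mmp13 was not tested. In line-type cells of control and KO tumours Ccl8 had 4.81 and 8.61 CPM, Egr2 5.81 and 13.8 CPM, and Nr4a3 7.82 and 16.8 CPM. Iigp1 had 34.3 and 70.7 CPM there, beside a summed level of 37.2 and 93.5 CPM in gated macrophages, and the part of free RNA was not tested.

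The 3 higher genes that passed both over all tumours and in the mixed libraries were Vcam1, AW112010 and Gas5, named after their values were seen. Vcam1, an adhesion molecule that binds integrins on lymphocytes, had 23.8 to 123 CPM (median 56.6) in control and 9.68 to 374 CPM (median 162) in KO tumours. Line 24 was high with a mean of 228 CPM, while line 19, with 77.0 CPM, did not stand above line 18, with 80.4 CPM. The log2 difference was 1.38 over all tumours and 1.02 in the mixed libraries, where control tumours had 31.0 to 123 CPM and KO tumours 74.4 to 204 CPM. Line-type cells had 124 CPM of Vcam1 in control and 126 CPM in KO tumours. AW112010, a transcript that interferon induces in myeloid cells, had a median of 247 against 476 CPM, a log2 difference of 0.80, with all 17 KO tumours above the control median. Gas5, a host gene of small nucleolar RNAs, had a median of 399 against 571 CPM, a log2 difference of 0.45, and 11 KO tumours lay above every control tumour. Line-type cells had 608 CPM of Gas5 in control and 682 CPM in KO tumours, beside a summed level of 413 and 573 CPM in gated macrophages. The part of free RNA was not tested.

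**Figure D3:**
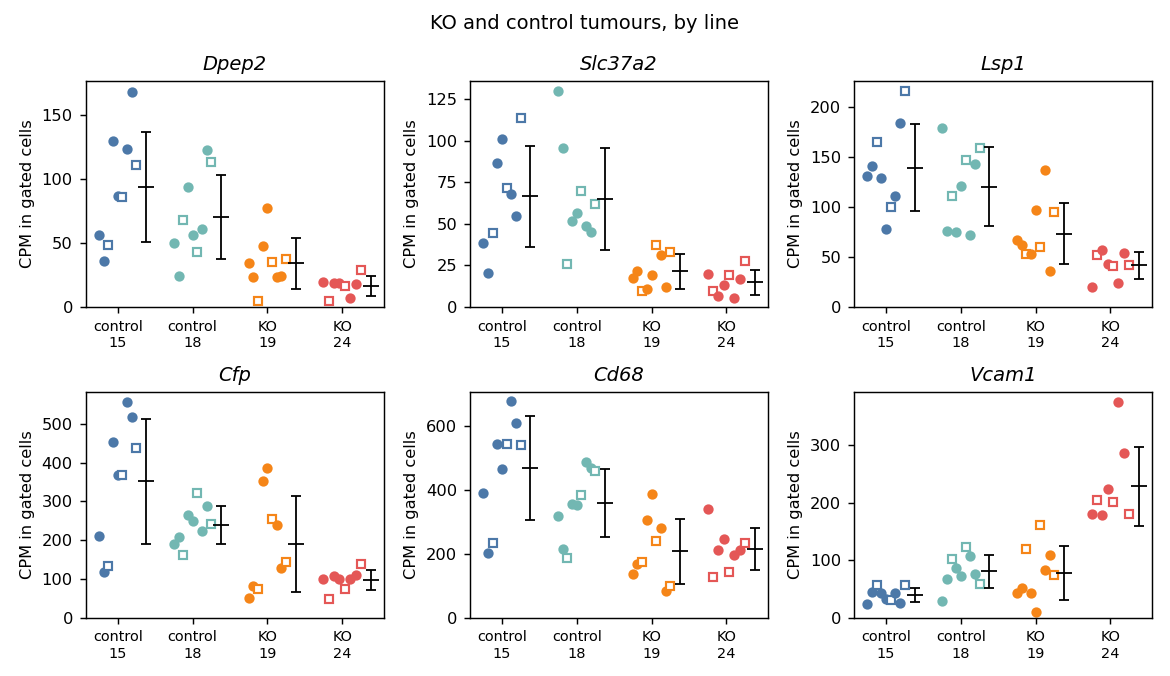
CPM in gated macrophages for 6 genes that differed between KO and control tumours, 1 point per tumour by line, with open squares for tumours of the mixed libraries and bars for the mean ± SD of each line. Slc37a2 and Lsp1 are lower in both KO lines, and Vcam1 is high in line 24 with a mean of 228 CPM while lines 19 and 18 lie close together at 77.0 and 80.4 CPM.

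The counts by pathway are to be read against the 10.8% higher and 11.1% lower over all genes tested. In the mixed libraries alone these shares were 0.094% and 0.884%. Receptors of phagocytosis and complement come first. Of 12 tested phagocytosis and complement receptors 6 fell and 1 rose, with a median log2 difference of -0.32 beside 0.00 over all genes tested. Besides Cd68 and C3ar1 the lower members were C5ar1 (the C5a receptor, -0.80), Clec4n (Dectin-2), Fcgr2b and Fcgr1 (receptors of antibody), and the higher member was Axl (a receptor for dying cells, 0.40). Clec4n had means of 334, 240, 182 and 252 CPM in lines 15, 18, 19 and 24, so KO line 24 did not lie below control line 18. In the mixed libraries alone 2 receptors of the list fell and 0 rose. Among 15 lipid-associated genes 5 fell and 1 rose, with a median of -0.15. Lgals3 fell by 0.52, Trem2 by 0.81, Cd9 by 0.50 and Fabp5 by 0.55 over all tumours, but Cd9 had 0.07 in the mixed libraries, and none of the 15 passed there. Lgals3 had 2138 CPM in gated macrophages and 2100 CPM in line-type cells, Cd9 803 and 1407 CPM, Fabp5 378 and 186 CPM, and Trem2 73.5 and 1.97 CPM. The part of free RNA was not tested.

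Of 17 interferon-γ response genes tested 7 rose and 2 fell over all tumours, with a median of 0.50. The higher members included Iigp1, Gbp7, Irgm1, Irf1, Cxcl9 and Gbp3, and the lower ones were the receptor chains Ifngr1 and Ifngr2 (-0.43). In the mixed libraries alone 0 rose and 1 fell. In MHC class I presentation 4 of 13 rose (B2m 0.29, Tapbp 0.31, Psme2 0.33 and Psme1 0.24) and 0 fell, with a median of 0.29 and 0 passing in the mixed libraries, where Tapbp had -0.039. Of the type I interferon response, 1 of 11 rose (Bst2, 0.52) and 1 fell (Irf7, -0.52).

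The MHC class II pathway outside the genes that chose the cells split. Of 8 tested H2-DMa (0.48) and the protease gene Ctss (0.32) rose and Ifi30 fell, with a median of 0.01, and in the mixed libraries only Ifi30 passed and Ctss had -0.12. Cd74 had a log2 difference of 0.10 (edgeR adjusted p = 0.640). The genes of the gate got no test. H2-Aa had a median of 3019 CPM in control and 4074 CPM in KO tumours, and C1qa of 1296 and 1306 CPM. For H2-Aa the line means were 3123, 2992, 2975 and 4316 CPM in lines 15, 18, 19 and 24, and in the mixed libraries the medians were 2782 CPM in control and 2388 CPM in KO tumours. C1qa had medians of 1372 CPM in control and 946 CPM in KO tumours of the mixed libraries.

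Smaller numbers passed in the other lists, to be read against the 10.8% higher and 11.1% lower over all genes tested. The chemokine, type I interferon and cell cycle counts are near those shares. Of 10 inflammatory genes 3 rose, namely Tnfaip3 (an inhibitor of NF-κB signalling, 0.97) and the neutrophil chemokines Cxcl1 (0.73) and Cxcl2 (0.64). Of 13 chemokine and recruitment genes 2 rose, Ccl8 and Ccl7 (0.98), and 2 fell, among them Ccl9 (-0.70). Of 6 genes of alternative activation and residence Cbr2 (1.15) and Maf (0.56) rose. Of 7 inhibitory genes Lilrb4a (-0.49) and Pirb (-0.51), receptors with inhibitory motifs, fell. Of 11 immediate early and heat shock genes 3 rose (Fosb 1.08, Egr1 0.91 and Ier2) and 3 fell (Dusp1 -0.40, Hspa1a -0.94 and Hspa1b). Of 4 Mif and receptor genes Mif and its homologue Ddt (-0.49) fell, and of 10 cell cycle genes Ccna2 fell by 0.63 over all tumours but had 0.20 in the mixed libraries. In the mixed libraries 0 members passed in each of these lists except the inhibitory one, where Lilrb4a did. Some members that rose were carried at a like or higher level by line-type cells. Cxcl1 had 492.7 CPM in gated macrophages and 916 CPM in line-type cells, Egr1 273 and 429 CPM, and Ier2 190.2 and 236 CPM. Cbr2 had 34.2 and 48.0 CPM, Axl 146 and 158 CPM, Irf1 123 and 129 CPM, and Bst2 859 and 789 CPM. The part of free RNA in these differences was not tested.

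Summed markers of several cell types were set beside these differences. The summed level of 8 monocyte markers was 349 to 2197 CPM (median 1081) in control and 571 to 2701 CPM (median 1400) in KO tumours, with Fn1 and Plac8 higher among 5 tested. Fn1 gave 682 of the 1366 CPM of that sum over all gated macrophages, and line-type cells had 1070 CPM of Fn1 and a sum of 1115 CPM, so the sum is no measure of monocytes alone. The summed level of 10 macrophage markers was 3375 to 8640 CPM (median 5424) and 2932 to 9920 CPM (median 6842), with 1 higher and 2 lower among 9 tested. For 6 osteoclast markers it was 31.4 to 2418 CPM (median 258) and 29.1 to 340 CPM (median 144), and Acp5, the only 1 tested, was lower. The line 15 library had the highest median of these markers, 657 CPM, against 88.1 to 230 CPM in the other libraries. For 6 fibroblast markers the summed level was 45.9 to 1972 CPM (median 382) in control and 192 to 1179 CPM (median 491) in KO tumours, with 0 of 4 called. For 6 natural killer markers it was 0 to 226 CPM (median 0) and 0 to 280 CPM (median 4.68), with a median of 48.5 CPM in the line 24 library and of 0 in the other 3 single-line libraries. Line 24 also had the highest library median for 6 neutrophil markers, 45.1 CPM against 8.21 to 19.5 CPM, and for 6 type 1 dendritic markers, 155 CPM against 77.5 to 110 CPM. The groups overlapped in each of these sums, and the part of other cells in the KO differences was not tested.

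From day 6 to day 16, 5 of 9 tested macrophage markers rose in the gated macrophages, 3 of 5 monocyte markers fell (Ly6c2, Plac8 and Ms4a4c) and 3 of 11 type I interferon response genes fell. Line was a term in this fit, so each line was compared with itself. Of 5778 genes tested 232 (4.02%) passed in edgeR's quasi-likelihood test with Benjamini-Hochberg adjustment, 179 higher (3.10%) and 53 lower (0.917%) on day 16. With a library term 211 passed (3.65%). Without line 15, 31 of 6349 passed (0.488%), 30 higher and 1 lower (Dynll1, a dynein light chain), and without line 18, 141 of 5814 (2.43%).

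Mmp12, the macrophage elastase, had 0 to 59.4 CPM (median 13.4) in the 11 tumours of day 6 and 70.7 to 460 CPM (median 180) in the 12 of day 16. The days did not overlap, with a log2 difference of 3.17 (SE 0.43, edgeR adjusted p = 4.28e-06). Lyz2 had 485 to 1366 CPM (median 766) on day 6 and 1538 to 2898 CPM (median 2441) on day 16. Again every tumour of day 16 lay above every tumour of day 6, with a log2 difference of 1.58 (SE 0.17). Clec4n, the fungal pattern receptor Dectin-2, had 63.5 to 220 CPM (median 128) and 145 to 527 CPM (median 297). All 12 tumours of day 16 lay above the median of day 6, with a log2 difference of 1.49. Without line 15 the differences of these 3 genes were 2.86, 1.53 and 1.31, and all 3 still passed.

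Further genes rose between the days while their values overlapped. Acp5, a phosphatase of osteoclasts and macrophages, had 13.6 to 280 CPM (median 52.2) on day 6 and 42.4 to 701 CPM (median 151) on day 16, a log2 difference of 2.18. Its means on days 6 and 16 were 53.1 and 494 CPM in line 15 but 166 and 174 CPM in line 24. The other genes that rose were Mgl2 (a galactose-binding lectin, 2.14), Zmynd15 (2.49), Trf (transferrin, 1.68), Dnase1l3 (a secreted DNase, 1.60), Pf4 (1.59) and Spint1 (a protease inhibitor, 1.53). Without line 15, Acp5 had 1.45 (edgeR adjusted p = 0.061), Dnase1l3 1.38, Pf4 1.58 and Spint1 1.11, none past the threshold, while Mgl2, Zmynd15 and Trf passed.

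Among the lower genes, Ly6c2 and Plac8 changed most. Ly6c2, the Ly6C antigen of inflammatory monocytes, had 59.7 to 654 CPM (median 369) on day 6 and 32.5 to 278 CPM (median 91.2) on day 16. All 12 tumours of day 16 lay below the median of day 6, although the days overlapped, with a log2 difference of -1.92 (SE 0.36, edgeR adjusted p = 0.000991). Line 18 was low from the start, with mean levels of 108, 195 and 82.2 CPM on days 6, 10 and 16, against 462, 116 and 97.3 CPM in line 15. Plac8 had 29.9 to 611 CPM (median 386) and 13.7 to 292 CPM (median 74.3), a log2 difference of -1.78. Without line 15 the differences were -1.78 and -1.49, with edgeR adjusted p of 0.055 and 0.081.

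Isg15, an interferon-induced ubiquitin-like protein, had 259 to 1163 CPM (median 941) on day 6 and 196 to 1020 CPM (median 497) on day 16, a log2 difference of -0.78. The lines did not follow 1 course. Means over the 3 days were 911, 524 and 490 CPM in line 15 and 1071, 262 and 237 CPM in line 19. They were 390, 602 and 495 CPM in line 18 and 1000, 699 and 932 CPM in line 24, and the interaction of line and day was not tested. Zbp1, a sensor of nucleic acids, fell by 0.97, Ifi205 and Ifi209 (of the interferon-induced p200 family) by 1.02 and 0.96, and Il18bp, which binds interleukin 18, by 1.14. Flrt3 fell by 1.25, Calhm6 by 0.99, Col5a1 (a collagen) by 0.94 and Ugcg (glucosylceramide synthase) by 0.92. None of these 9 genes passed without line 15.

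**Figure D4:**
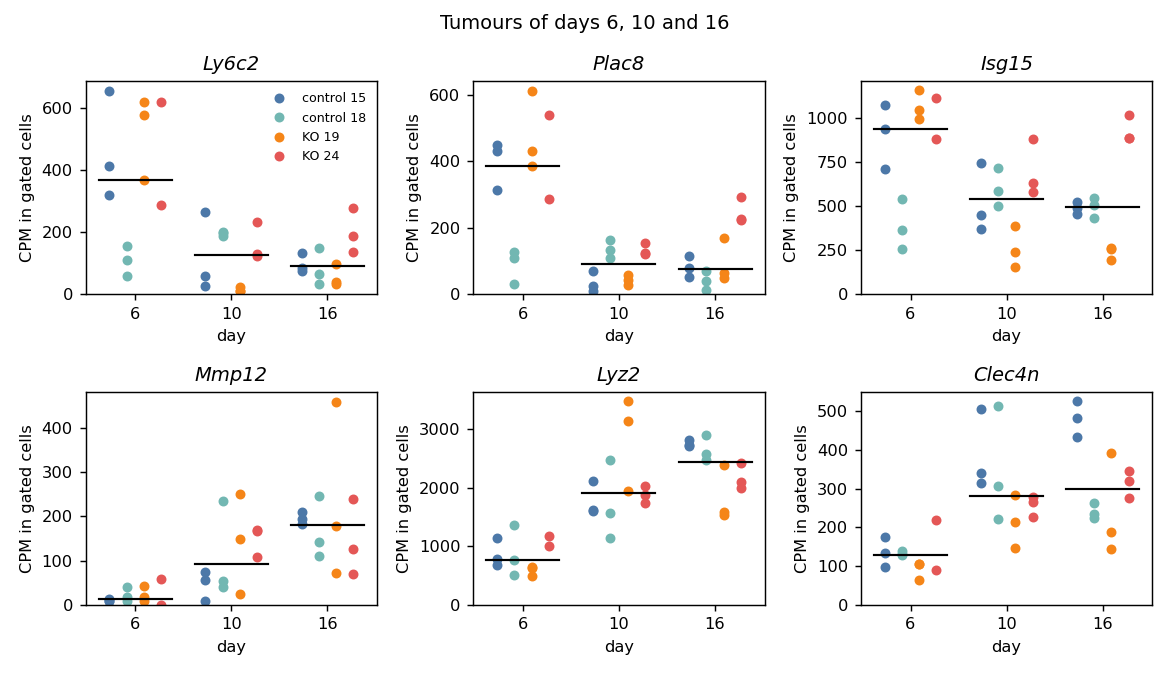
CPM in gated macrophages for 6 genes by day, 1 point per tumour coloured by line, with a black line for the median of each day. Mmp12 and Lyz2 on day 16 lie above every tumour of day 6, Ly6c2 and Plac8 are low from the start in line 18, and Isg15 is high again on day 16 in line 24.

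The lists showed the same 2 sides, to be read against the 3.10% higher and 0.917% lower over all genes tested. Of 12 phagocytosis and complement receptors 6 rose and 0 fell, with a median of 0.60 beside -0.01 over all genes tested (Clec4n, Fcgr2b 0.81, Fcgr3 0.83, Cd68 0.79, Adgre1 and Itgb2). Of 15 lipid-associated genes 5 rose, with a median of 0.24, among them Trem2 (1.46), Abca1 (a cholesterol exporter, 1.10) and Apoe (1.42), whose median went from 479 to 1553 CPM. Of 6 genes of alternative activation and residence 3 rose (Pf4, Msr1 0.60 and Stab1 1.28), with a median of 0.73. In the MHC class II pathway outside the gate 3 of 9 rose, namely Cd74 (0.67), H2-DMb1 (0.76) and Ifi30 (0.61), with a median of 0.42. Cd74 had a median of 5761 CPM on day 6 and 10965 CPM on day 16.

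Of 11 type I interferon response genes 3 fell (Ifi27l2a -0.76, Isg15 and Isg20 -0.62) and 0 rose. All 11 had a negative difference, with a median of -0.52 beside -0.01 over all genes tested. Of 17 interferon-γ response genes Gbp2 (-0.87) fell and Ifngr1 (0.66) rose, with a median of -0.56. Without line 15, where Dynll1 was the 1 lower gene, none of Ifi27l2a, Isg15, Isg20 and Gbp2 passed. Csf1r (1.02) and Cxcl16 (0.44) rose among 13 chemokine and recruitment genes, Sirpa (0.54) among 7 inhibitory genes, and Junb (0.40) and Fos (0.57) among 11 immediate early and heat shock genes. None of 13 MHC class I, 11 inflammatory, 10 cell cycle and 4 Mif and receptor genes passed. Among the genes of the gate, with no test, H2-Aa had a median of 2295 CPM on day 6 and 4017 CPM on day 16, and C1qa of 785 and 1583 CPM. In these sums, a change in the mix of monocyte-like and macrophage-like cells within the gate and a change within each cell cannot be told apart.

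Whether the KO differences were particular to gated macrophages was tested as an interaction, within tumours, against the Mrc1-positive C1q cells. Of 6706 genes 31 (0.462%) passed in edgeR, with the KO difference more positive in gated cells for 19 (0.283%) and more negative for 12 (0.179%). Cbr2, a carbonyl reductase, had medians of 17.4 CPM in control and 44.2 CPM in KO tumours in gated cells, against 83.5 and 61.3 CPM in Mrc1-positive cells, an interaction of 1.93 (SE 0.24), beside 22.0 CPM in line-type cells of control and 70.8 CPM in those of KO tumours. Cd93, a lectin-like receptor of myeloid and endothelial cells, had 25.9 and 47.1 CPM against 120 and 92.8 CPM, an interaction of 1.08 (SE 0.16). For both genes the medians of the 2 populations lay closer together in KO tumours. Neither gene passed against Mrc1-positive cells with at least 5 MHC class II UMIs. All Mrc1-positive cells together had a median of 791 CPM of H2-Aa in control and 1984 CPM in KO tumours. Cd74 had medians of 8541 and 10947 CPM in gated cells and 2318 and 5718 CPM in Mrc1-positive cells, an interaction of -1.18 (SE 0.17). The gate sets a floor on MHC class II in gated cells alone, and against Mrc1-positive cells with the same floor Cd74 had 0.04, so nothing is read from its first value.

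Against Mrc1-positive cells with at least 5 MHC class II UMIs, a comparator added after these results, 1 of 5928 genes (0.0169%) passed in edgeR, with 275 at an unadjusted p under 0.05. That gene, Acp5, had interactions of -1.45 against all Mrc1-positive cells and -1.52 (SE 0.26, edgeR adjusted p = 0.00251) against the matched ones. Its line means in gated cells were 411, 118, 59.3 and 163 CPM in lines 15, 18, 19 and 24, against 119, 153, 43.7 and 187 CPM in Mrc1-positive cells. Line 15 was high in gated cells only, and without it the interaction against all Mrc1-positive cells was -0.81 (edgeR adjusted p = 0.382), and without line 24 it was -0.88 (edgeR adjusted p = 0.823).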

How the data were processed

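For each of 6 libraries the authors deposited a matrix of unnormalised UMI counts, with 32285 rows for genes and 10 for hashtags, and a sheet that pairs hashtags with line, day and letter. Cell Ranger 6.0.0 and mm10 are named per the submitters' processing notes, while the sources used here do not name the annotation. Library totals ran from 151385933 to 239699029 UMIs.

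Cells were kept with at least 300 genes, at most 15% mitochondrial UMIs and a top hashtag of at least 20 counts and 3 times the second. The members and the gene lists were chosen with earlier results of these data known. Counts were summed per tumour with at least 20 gated macrophages (50060 to 3146367 UMIs per tumour, the deeper sums being the more precise). They were tested in edgeR 4.0.16 (R 4.3.3; filterByExpr, TMM, glmQLFit, glmQLFTest), with day as a term for KO against control, line and day for the days, and tumour and cell subset for the interaction. p-values were adjusted by Benjamini-Hochberg over all genes tested, with a threshold of 0.05, and the 10 genes of the gate got no call. The F statistic of a gene and its fold change gave the standard error. Shares were tested by two-sided permutation of tumours within days (scipy 1.17.1, 100000 resamples, or exact).

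Named with values are at most 4 genes per list, those past the threshold first, and the 10 largest changes each way past the threshold with a mean log2 CPM of at least 5. Predicted, ribosomal and mitochondrial genes were left out of the largest changes, and some list members are counted but not reported by name here. For the largest changes of KO against control, the means of both KO lines had to be above, or both below, the means of both control lines. List members had no such rule, and Vcam1, AW112010 and Gas5 were named after their values were seen. On simulated data with 200 changed genes, the fits recovered 92% (KO against control, 5336 genes), 93% (days, 5784 genes) and 93% (interaction, 6713 genes) of 2-fold changes. Wrong calls were 8 of 190, 10 of 200 and 8 of 200. The simulation had no line effects beyond the terms of each fit. Thinning to 2000 UMIs, among the alternatives that follow, left out 24040 cells with fewer UMIs. Also run were DESeq2 1.42.0, no low-count filter, RLE scaling, stricter cells or hashtags, other gate limits, thinning to 2000 UMIs, cells with another type's marker left out, at least 50 cells per tumour, a library term, the mixed libraries alone, 1 sum per line and each line left out. The C1q limit of 10 UMIs, the MHC class II-matched comparator and the thinned mixed libraries were added after seeing the data.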

Additional observations from a re-analysis of the deposited data

Results flagged for a closer look

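Of 24 groups of tumours examined for a share that stands apart, 6 held such a tumour, by Dixon's criterion, which chance meets in about 1 of 20 groups. The tumour of control line 15 at day 6 with letter B had 40.5% of its C1q cells in the gate, apart from the other tumours of its line and from the other control tumours of day 6. The tumour of control line 18 at day 10 with letter A had 53.7% of its C1q cells and 7.50% of its kept cells in the gate, apart from its line in the first share and from the control tumours of day 10 in both. Among the KO tumours of the mixed libraries, line 24 at day 16 with letter C had 8.76% of its kept cells in the gate. These tumours entered the comparisons above.

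The KO difference differed between gated and Mrc1-positive C1q macrophages for 31 genes by the interaction test in edgeR, and the named ones are given here with the difference of the 2 log2 differences. More positive in gated macrophages were Cbr2 (1.93), Gas6 (1.73), Ccl8 (1.35), Cd93 (1.08), Igfbp4 (0.9998), Ccl7 (0.94), Stab1 (0.91), Pf4 (0.89), Ccl2 (0.86), Rnase4 (0.81), Maf (0.76), Ctsl (0.64) and Ctsb (0.41). More negative were Acp5 (-1.45), Cd74 (-1.18), Cyp4f18 (-1.14), H2-DMb1 (-1.13), Itgax (-0.93), AW112010 (-0.80), Cfb (-0.73), H2-DMa (-0.68), Pxdc1 (-0.66) and Il1b (-0.52). Of these, Acp5 alone passed against Mrc1-positive cells with MHC class II.

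In samples outside the comparisons, 8 gated macrophages were found at day 0, all in line 24 with letter B, among 2135 kept cells. The count was 2 with a hashtag at least 5 times the second, 2 with cells thinned to 2000 UMIs and 0 with at least 10 C1q UMIs. The WT tumours had 48.4% of C1q cells in the gate on day 6 (exact Clopper-Pearson 95% interval 43.3% to 53.6%), 28.9% on day 10 (24.6% to 33.6%) and 28.3% on day 16 (23.7% to 33.2%), with 1 tumour per day. The intervals cover counting error only. Thinned to 2000 UMIs, the shares were 42.1%, 34.7% and 41.2%.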

How the results depend on the processing

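With 1 sum per line, KO against control gave 0 of 11211 genes in edgeR (1454 at an unadjusted p under 0.05), with a library term 47, in the mixed libraries alone 52, and with cells thinned to 2000 UMIs 466 of 1445 tested. Leaving out 1 line gave 285 (without line 24) to 1674 (without line 19), and 614 without control line 15. For day 16 against day 6, no low-count filter gave 431 genes, at least 10 C1q UMIs 145, thinning 173 of 1862 with 75 higher and 98 lower, and leaving out 1 line 31 (without line 15) to 223. The interaction count was 19 with DESeq2, 54 thinned, 103 without the filter, 1 against MHC class II-matched cells and 7 (without line 24) to 40 (without line 19) with 1 line left out. The share of C1q cells differed by 14.5 to 35.6 points, and that of kept cells by -0.78 to 3.56 points, with 1 line left out, and the second passed the test without line 19 alone.

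Signs turned, under the library term and in the mixed libraries, for Serpinf1 (-0.15 and -0.15), Ctss (-0.11 and -0.12), Tapbp (-0.043 and -0.039), Cd9 (0.075 and 0.071), Mif (0.10 and 0.088) and Ccna2 (0.25 and 0.20). Against MHC class II-matched cells they turned for Cd74 (0.037), H2-DMa (0.036) and Il1b (0.17). The cause was not tested. Of the values of named genes under the alternatives, 1107 kept direction and side of the threshold, 358 lost the threshold and 12 turned for KO against control (90 genes), 509, 109 and 0 for the days (42 genes), and 250, 89 and 3 for the interaction (23 genes). By line number, no paired analysis was possible because the lines of the 2 groups share no number. Some control and KO tumours of the mixed libraries shared both library and day, such as lines 15 and 19 in mixed library 1. A paired test of these tumours was not run. In the gene tests, the library that tumours of both groups share was handled by the library term and by the mixed libraries alone. The permutation of shares in the mixed libraries was within days only, so it did not account for library. Shallow tumours (from 22 gated macrophages) limit what could be called among genes of low level.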

Other observations

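The 3 WT tumours, which the labels put in no group, had 152 to 188 CPM of Vcam1 in gated macrophages, where the median was 56.6 CPM in control and 162 CPM in KO tumours. They had 733 to 1006 CPM of AW112010 (medians 247 and 476 CPM), 33.6 to 74.8 CPM of Dpep2 (77.0 and 23.6 CPM) and 26.8 to 49.1 CPM of Slc37a2 (59.2 and 17.1 CPM). All 3 shared mixed library 2 with tumours of lines 18 and 24.

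Gated macrophages also carried genes that no list above holds. With each cell thinned to 2000 UMIs, Dnase1l3, a secreted DNase, had a UMI in 9.36% of them, against 3.53% of Mrc1-positive cells and 0.04% of line-type cells, and Il1r2 in 19.3%, against 5.67% and 0.28%. Ms4a7, a membrane protein of macrophages, had one in 37.8%, against 67.0% and 0.80%. Unthinned, the shares in gated macrophages were 13.9%, 25.9% and 48.1%. For Vcam1 the thinned share was 21.0%, with a median of 7.76% in control and 21.1% in KO tumours, against 22.7% of line-type cells. Its summed level was 64.8 CPM in gated macrophages and 124 CPM in line-type cells of control tumours, and 194 and 126 CPM in those of KO tumours, and the part of free RNA was not tested.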
